A study of Mus musculus with 6 samples.

Results

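The 40 genes described here encode core parts of the cell division machinery, and they were compared between hearts of mice with a deletion of Srsf3 in cardiomyocytes and control hearts. SRSF3 is an SR protein, an RNA-binding factor that acts in splicing. The cKO group was 3 hearts of Srsf3Fl/Fl-βMHC-Cre mice, in which Cre recombinase, expressed constitutively from the Myh7 promoter in cardiomyocytes during development in utero, deletes the floxed part of Srsf3. The control group was 3 hearts of Srsf3Fl/Fl mice, which carry the same floxed alleles without Cre, so a group with Cre alone was not part of the comparison. All hearts were untreated, and the age of the animals is not given in the sources used here. Whole hearts hold several cell types, while the deletion is directed to cardiomyocytes. Members were chosen by symbol, and all 40 were found among the 36558 genes of the gene table and had an adjusted p-value. In the table of splicing events, 38 of the 40 had 1284 of the 265079 events, and Ccnb1 and Pcna had none. The members were sorted into 7 regulators of the step from G1 into S phase, 10 genes of DNA replication and nucleotide supply, 10 G2/M regulators and chromosome proteins, 8 genes of spindle, kinetochore and checkpoint, and 5 genes of cytokinesis.

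A dividing cell passes through G1, copies its DNA in S phase, prepares in G2 and divides in M phase. Cyclins bound to cyclin-dependent kinases (CDKs) drive these steps, and E2F factors switch on the S phase genes once the retinoblastoma proteins release them. Genes of G2 and mitosis are switched on later by B-MYB and FOXM1 with the MuvB complex, which binds a promoter motif called the CHR. Cardiomyocytes divide before birth and leave the cell cycle soon after it, while fibroblasts, endothelial cells and macrophages of the heart keep the ability to divide.

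More of the members had lower mRNA in cKO hearts than not, and no member had higher mRNA at the threshold. At a DESeq2 adjusted p under 0.05, 23 of 40 members fell and 0 rose in the authors' deposited table, where 3.31% of the 15929 tested genes were called lower and 3.78% higher. Among the 9165 tested genes within the members' range of mean normalized counts, 4.5% were called lower. All 40 members had a negative log2 fold change of cKO over control in the authors' deposited table, as did 50.8% of all tested genes. Their median was -0.34, which is 78.9% of the control level, against a median of -0.0038 over all tested genes in the authors' deposited table. The values ran from -0.70 for Rrm2 to -0.10 for Ccnd2 on the log2 scale in the authors' deposited table, so the largest fall left 61.6% of the control level. At an unadjusted p under 0.05, 29 members were lower in the authors' deposited table, where 9.24% of tested genes were. In RNA of whole hearts, fewer cells of a dividing type and less of this RNA per cell cannot be told apart. The genes come from the same 6 libraries and are not independent of each other.

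**Figure D1:**
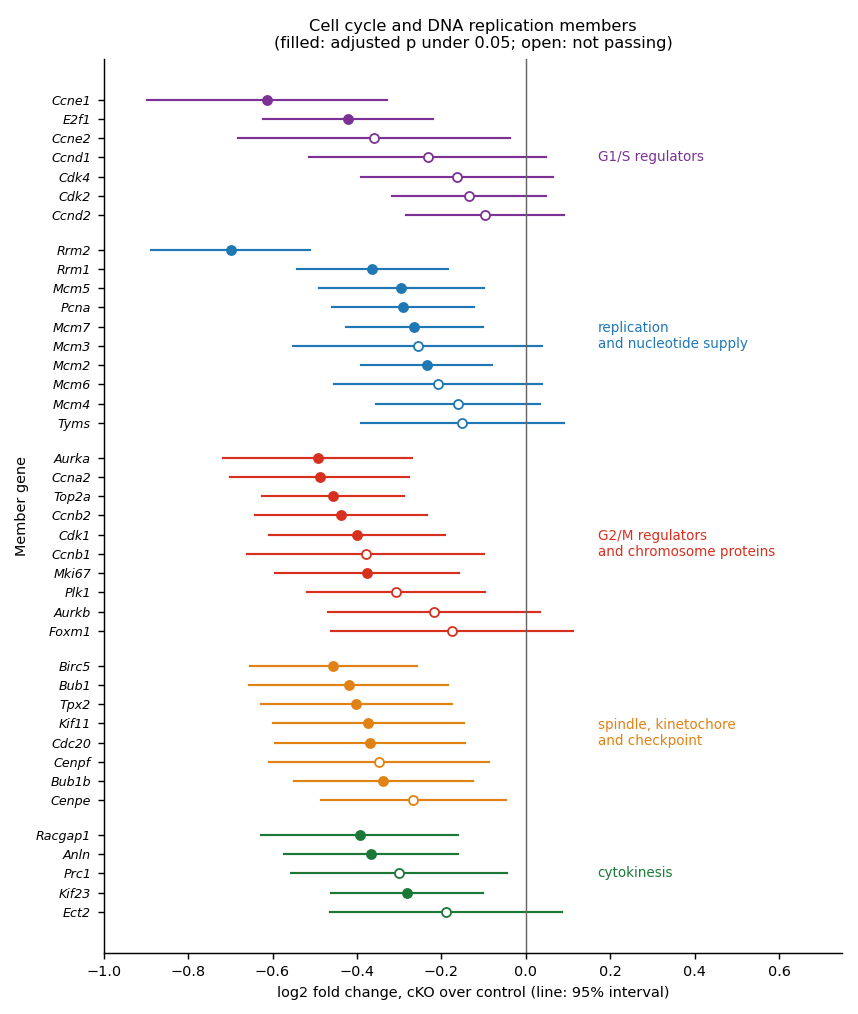
Log2 fold change of cKO over control for each of the 40 members on the horizontal axis, grouped by role, with points for the authors' values and lines for 95% intervals (1.96 standard errors each way). Filled points mark the 23 members with an adjusted p under 0.05; all 40 points lie left of 0, and 11 of the 40 intervals hold 0.

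The deposited gene table holds 1 comparison and no level per heart, so values in single hearts, their spread and the depth of each library are not given for the members. The group on top of the fold change is not named in it and was read from the splicing table: for 596 of 629 called genes with a readout (94.8%), the fold change had the same sign as the ratio of cKO over control in the depth behind near-constitutive exons. This share is a description, since both tables come from the same libraries and the genes are not independent. Srsf3 itself had a log2 fold change of 0.02 (SE 0.07, adjusted p = 0.935), per the authors' deposited table, so total Srsf3 mRNA of the whole heart did not separate the groups. The splicing table holds no event at a deleted exon of Srsf3, and the deletion was not checked here. Cardiomyocyte markers such as Myh6 and Tnnt2 had means of 25584 to 1223060 normalized counts over all hearts in the authors' deposited table, as the label of the tissue says.

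Of the G1/S regulators, 2 of 7 fell. Ccne1, which encodes cyclin E1, the CDK2 partner at the entry into S phase (chr7:38097984-38107534, GRCm38), had a log2 fold change of -0.61 (SE 0.14, adjusted p = 0.00123), per the authors' deposited table, 34.6% below control. E2f1, a transcription factor of the S phase genes (chr2:154559407-154569892), had -0.42 (SE 0.10, adjusted p = 0.00198), 25.4% below control in the authors' deposited table. The cyclin D genes and their kinase, which act earlier and respond to growth signals, did not pass. Ccnd2, the member with the highest mean (10459 normalized counts), had -0.10 with a 95% interval of -0.28 to 0.09, and Ccnd1 had -0.23 with an interval of -0.51 to 0.05, in the authors' deposited table. Cdk4, the kinase of the D cyclins, had -0.16 (interval -0.39 to 0.06), and Cdk2, the kinase of cyclins E and A, had -0.14 (interval -0.32 to 0.05), per the authors' deposited table. The second cyclin E gene, Ccne2, had -0.36 (SE 0.16, adjusted p = 0.189), per the authors' deposited table, with a wider error than Ccne1. The median of the 7 was -0.23.

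Among the 10 genes of replication and nucleotide supply 6 fell, with ribonucleotide reductase first. This enzyme makes the deoxynucleotides for DNA synthesis from ribonucleotides. Rrm2, its regulatory small subunit, present mainly in S phase (chr12:24708241-24714146), had a log2 fold change of -0.70 (SE 0.10, adjusted p = 1.52e-10), per the authors' deposited table, 38.4% below control. Rrm1, the large subunit (chr7:102441695-102469771), had -0.36 (SE 0.09, adjusted p = 0.00298), 22.3% below control in the authors' deposited table. The 95% interval of Rrm2, -0.89 to -0.51, and that of Rrm1, -0.54 to -0.18, overlapped slightly, and their difference was not tested. The rest of the group had smaller values. Pcna, the sliding clamp of the DNA polymerases, had -0.29 (SE 0.09, adjusted p = 0.0169), per the authors' deposited table.

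Mcm2 to Mcm7 encode the 6 subunits of the ring-shaped replicative helicase, and 3 of the 6 passed. Mcm7 had a log2 fold change of -0.26 (SE 0.08, adjusted p = 0.0272), Mcm5 had -0.29 (SE 0.10, adjusted p = 0.0467) and Mcm2 had -0.24 (SE 0.08, adjusted p = 0.0467), per the authors' deposited table. Mcm3 at -0.26 (SE 0.15), Mcm6 at -0.21 (SE 0.13) and Mcm4 at -0.16 (SE 0.10) did not pass in the authors' deposited table. The 6 values lay between -0.29 and -0.16, with a median of -0.25. The calls of Mcm2 and Mcm5 ended, at 0.0734, when p-values were adjusted over every gene with a p-value. Tyms, which encodes thymidylate synthase, had -0.15 (interval -0.39 to 0.09), per the authors' deposited table, short of passing.

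The promoters of the members with the smallest adjusted p in the replication group, Rrm2 and Rrm1, are shown with that of Mcm6, which was added after the motifs had been seen because it holds 3 E2F sites. Each stretch covers the 150 bases before the RefSeq start on the gene's strand (RefSeq, GRCm38.p6), at chr12:24708104-24708253 (+) for Rrm2, chr7:102441545-102441694 (+) for Rrm1 and chr1:128359706-128359855 (-) for Mcm6. Capitals mark E2F sites (TTTCCCGC, TTTCGCGC, TTTGCCGC or TTTGGCGC), CHR motifs (TTTGAA or TTCGAA) and CCAAT boxes (CCAAT), on either strand.
Rrm2: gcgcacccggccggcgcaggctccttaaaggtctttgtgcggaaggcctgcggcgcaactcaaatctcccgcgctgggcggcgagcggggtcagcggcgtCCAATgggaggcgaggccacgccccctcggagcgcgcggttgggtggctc
Rrm1: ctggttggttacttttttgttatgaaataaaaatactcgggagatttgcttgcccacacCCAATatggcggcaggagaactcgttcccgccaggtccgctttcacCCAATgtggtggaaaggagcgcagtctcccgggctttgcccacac
Mcm6: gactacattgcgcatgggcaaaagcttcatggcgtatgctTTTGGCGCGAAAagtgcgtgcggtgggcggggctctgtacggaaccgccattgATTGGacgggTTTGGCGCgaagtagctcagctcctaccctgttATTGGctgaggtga
Rrm2 has 1 CCAAT box in this stretch and Rrm1 has 2, and neither has an E2F site or a CHR spelled in these letters. Mcm6 has 3 E2F sites, of which 2 overlap on opposite strands, and 2 CCAAT boxes.

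Of the 10 G2/M regulators and chromosome proteins, 6 fell. Top2a, which encodes the topoisomerase that untangles chromosomes before they separate (chr11:98992943-99024189), had a log2 fold change of -0.46 (SE 0.09, adjusted p = 1.46e-05), 27.1% below control in the authors' deposited table. Ccna2, cyclin A2, active from S phase into mitosis, had -0.49 (SE 0.11, adjusted p = 0.000513), per the authors' deposited table. Aurka, the centrosomal kinase that helps to build the spindle, had -0.49 (SE 0.11, adjusted p = 0.000883), per the authors' deposited table. Of the kinase complex that starts mitosis, the cyclin Ccnb2 had -0.44 (SE 0.10, adjusted p = 0.00132) and the kinase Cdk1 had -0.40 (SE 0.11, adjusted p = 0.00591), per the authors' deposited table. Ccnb1, the other B cyclin, had a like value of -0.38 with a larger error (SE 0.14, adjusted p = 0.0840), per the authors' deposited table, short of passing. Mki67, the gene of the Ki-67 protein that coats mitotic chromosomes and is used as a stain for cycling cells, had -0.38 (SE 0.11, adjusted p = 0.0178), per the authors' deposited table, 22.9% below control.

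Plk1, a kinase of mitotic entry and exit, had a log2 fold change of -0.31 (SE 0.11), per the authors' deposited table, and lay just outside the threshold at an adjusted p of 0.0555. Aurkb, the kinase of the chromosomal passenger complex, had -0.22 (interval -0.47 to 0.03), per the authors' deposited table. Foxm1, a transcription factor of the G2/M genes, had -0.18 with an interval of -0.46 to 0.11 (adjusted p = 0.577), per the authors' deposited table. Foxm1 thus did not pass, while 15 of the 23 members of G2/M, spindle and cytokinesis did. Its interval holds the median of those 23, -0.37, and a difference of Foxm1 from them was not tested.

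Among the 8 genes of spindle, kinetochore and checkpoint 6 fell, and the group's values lay close together, from -0.46 to -0.27 in the authors' deposited table. Birc5, which encodes survivin, a partner of Aurora B in the passenger complex (chr11:117849251-117855743), had a log2 fold change of -0.46 (SE 0.10, adjusted p = 0.00045), per the authors' deposited table. Bub1 and Bub1b, kinetochore proteins of the spindle checkpoint, had -0.42 (SE 0.12, adjusted p = 0.0131) and -0.34 (SE 0.11, adjusted p = 0.0324), per the authors' deposited table. Their target Cdc20, the activator of the anaphase-promoting complex (APC/C), had -0.37 (SE 0.11, adjusted p = 0.0256), per the authors' deposited table. Both spindle assembly factors, the Aurora A activator Tpx2 at -0.40 (SE 0.12, adjusted p = 0.0142) and the kinesin Kif11 at -0.37 (SE 0.12, adjusted p = 0.0246), fell in the authors' deposited table. The large outer kinetochore proteins Cenpf at -0.35 (SE 0.13, adjusted p = 0.0912) and Cenpe at -0.27 (SE 0.11, adjusted p = 0.138) did not pass in the authors' deposited table. Both are in the list of genes that the authors found with sleuth, another test on kallisto estimates. Bub1b passed no longer, at 0.0510, when p-values were adjusted over every gene with a p-value.

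The upstream stretches of Top2a and Birc5, the members of the mitotic groups with the smallest adjusted p, are shown with that of Cdk1, added after the motifs had been seen because it holds all 3 kinds. They lie at chr11:99024190-99024339 (-) for Top2a, chr11:117849087-117849236 (+) for Birc5 and chr10:69352913-69353062 (-) for Cdk1 (RefSeq, GRCm38.p6), with capitals as above.
Top2a: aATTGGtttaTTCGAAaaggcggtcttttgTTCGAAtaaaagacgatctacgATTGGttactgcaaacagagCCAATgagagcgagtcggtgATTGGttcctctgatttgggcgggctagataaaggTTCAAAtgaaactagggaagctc
Birc5: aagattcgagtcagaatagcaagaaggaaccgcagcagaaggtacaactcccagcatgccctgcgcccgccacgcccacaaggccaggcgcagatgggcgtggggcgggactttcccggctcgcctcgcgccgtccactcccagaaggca
Cdk1: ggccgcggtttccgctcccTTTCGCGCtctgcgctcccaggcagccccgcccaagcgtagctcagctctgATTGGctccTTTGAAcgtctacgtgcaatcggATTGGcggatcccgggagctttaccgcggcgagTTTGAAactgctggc
Top2a has 3 CHR motifs and 4 CCAAT boxes in this stretch. Cdk1 has 1 E2F site, 2 CHR motifs and 2 CCAAT boxes. Birc5 has none of the motifs in these letters.

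Of the 5 cytokinesis genes, which build the cleavage furrow and the central spindle, 3 fell. Anln, the actin-binding scaffold anillin, had a log2 fold change of -0.37 (SE 0.11, adjusted p = 0.0136), per the authors' deposited table. Racgap1 and Kif23 encode the subunits of centralspindlin, and had -0.39 (SE 0.12, adjusted p = 0.0215) and -0.28 (SE 0.09, adjusted p = 0.0352), per the authors' deposited table. The call of Kif23 ended, at 0.0552, when p-values were adjusted over every gene with a p-value. Prc1, which bundles the midzone microtubules, had -0.30 (SE 0.13, adjusted p = 0.160), per the authors' deposited table. Ect2, the exchange factor that activates RhoA at the furrow, had -0.19 (interval -0.46 to 0.09, adjusted p = 0.512), per the authors' deposited table, short of passing, yet it held the only member splicing event that was called.

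Set side by side, 2 of 7 G1/S members, 6 of 10 replication members and 15 of 23 members of mitosis and cytokinesis fell. Of all tested genes 3.31% were called lower, and 4.5% of those within the members' range of mean counts. The median log2 fold changes of these member groups were -0.23, -0.26 and -0.37 in the authors' deposited table. The difference between these groups was not tested, since genes of 1 set of libraries are not replicates. The ranges overlapped, and the members at the low end, Rrm2 and Ccne1, belong to S phase and its entry rather than to mitosis. Of the 40 members 14 are in the authors' sleuth list, which holds 3.24% of the tested genes in either direction. The authors' featureCounts list is short and holds 0.659% of the tested genes, and 5 of the 9165 within the members' range of mean counts, so its 0 members do not set them apart from other genes. Of the 23 members that fell, 12 are in the sleuth list.

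The promoters were described by their motifs, with no test. RefSeq windows from 250 bases before to 50 after the start were matched for 32 of the 40 members; Ccnd1, Ccnd2, Ccne2, Mcm4, Foxm1, Ccna2, Aurkb and Tpx2 had none. A CHR was found in 16 of 19 windows of the mitosis and cytokinesis members (84.2%) and in 2 of 13 windows of the G1/S and replication members (15.4%), against 19.4% of the windows of all 27025 genes. All 5 cytokinesis members and 6 of 7 G2/M members held one. An E2F site was found in 1 of the 19 windows (Cdk1) and in 5 of the 13, against 2.32% of all genes. CCAAT boxes were common in both sets, in 17 of 19 and 9 of 13 windows, against 37.9% of all genes. A CHR together with a CCAAT box stood in 15 of the 19 (78.9%) and in 7.70% of all genes. Only 1 pair of hits of different motifs overlapped in the members' windows. A match of letters is not a binding site, and binding was not analysed here.

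**Figure D2:**
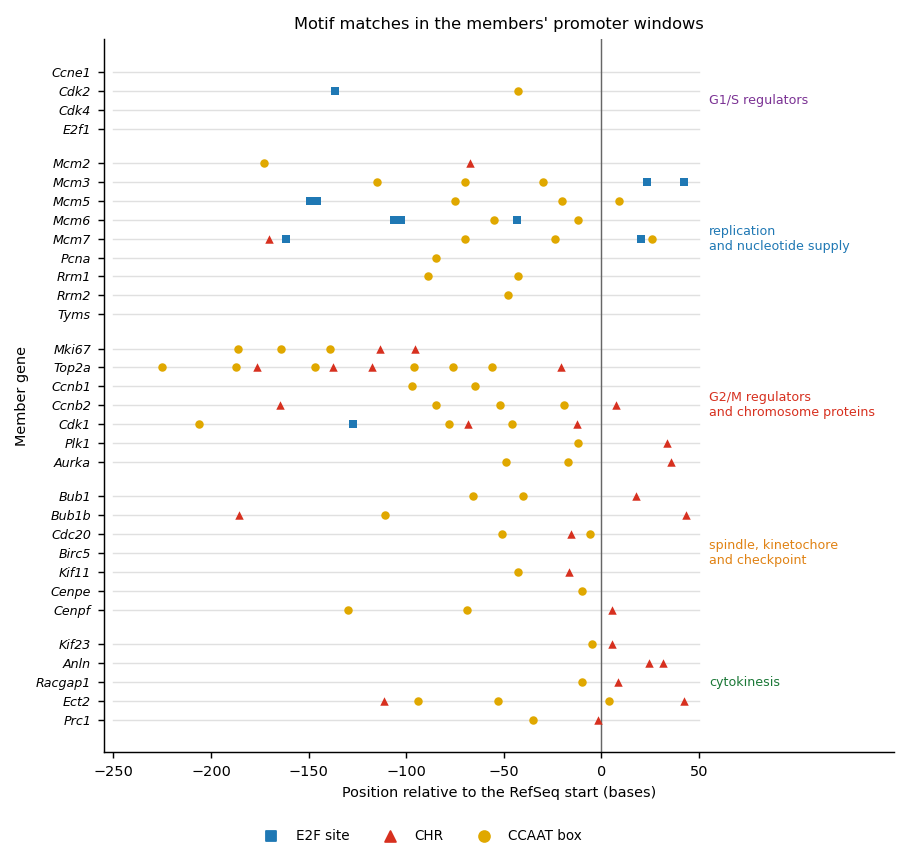
Positions of E2F sites, CHR motifs and CCAAT boxes, on either strand, in the promoter windows of the 32 members with a RefSeq window; the horizontal axis is the distance from the start in bases and each line is 1 gene. CHR motifs stand in 16 of the 19 windows of mitosis and cytokinesis members and in 2 of the 13 windows of G1/S and replication members.

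A second, indirect readout of the members' RNA came from the splicing table. It takes the distance from full inclusion, at exons within 3 points of it, as a stand-in for depth. It could be had for 32 of the 40 members. All 32 lay below the median of all genes, with a median of -0.36 and a range of -0.59 to -0.10 on the centred log2 scale of cKO over control. By role the centred medians were -0.34 for G1/S regulators, -0.24 for replication, -0.40 for the G2/M group, -0.42 for the spindle group and -0.41 for cytokinesis. Before centring, the median of all genes was 0.39, and members lay on both sides of 0, with Mcm5 at 0.29 and Ccne1 at -0.20. In this readout the G1/S regulators did not have the smallest differences, and Foxm1, which did not pass in the gene table, had -0.53. This measure comes from the same libraries as the gene table and was not tested. It had the sign of the fold change at 596 of 629 called genes but departed from it at single genes. The related gene Gmnn had 0.87 in it and -0.79 in the authors' deposited table. Rgs5, a marker of mural cells, had 3.14 in it and -0.11 in the authors' deposited table.

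**Figure D3:**
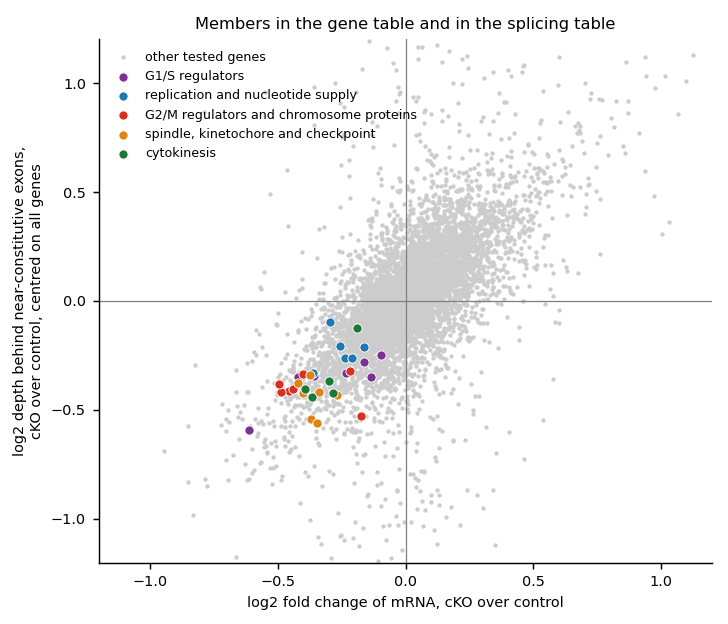
Each gene's log2 fold change in the gene table (horizontal axis) against the centred log2 ratio of the depth behind its near-constitutive exons, cKO over control, in the splicing table (vertical axis); grey points are other tested genes and coloured points the 32 members with a readout. All 32 members lie in the lower left, between -0.59 and -0.10 on the vertical axis; genes beyond 1.2 on either axis are not drawn.

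Other genes of the same pathways were described from 162 further genes in 10 groups, of which 160 were tested. Of these, 45 fell (28.1%) and 3 rose in the authors' deposited table, against 3.31% of all tested genes called lower and 3.78% higher, with a median log2 fold change of -0.23. Differences between the groups of related genes were not tested. Of the mitotic kinesins and spindle genes 13 of 20 fell, among them Nusap1 at -0.44, Kif22 at -0.58 and Tacc3 at -0.49 in the authors' deposited table. Of the kinetochore and checkpoint genes 11 of 21 fell, with the passenger proteins Incenp at -0.38 and Cdca8 at -0.55 and the centromere protein Cenpm at -0.54 in the authors' deposited table. Of the cohesin, condensin and separase genes 8 of 17 fell. Among them were the condensin subunits Smc2 at -0.72 and Ncapg at -0.65 and the cohesin acetyltransferase Esco2 at -0.58 in the authors' deposited table. The cohesin subunits Smc1a (-0.09), Smc3 (-0.14), Rad21 (-0.24), Stag1 (-0.19) and Stag2 (0.04) did not pass in the authors' deposited table. Of the APC/C group 2 of 15 fell, and they were not subunits: Ube2c at -0.53 is its ubiquitin-conjugating enzyme and Fbxo5 at -0.38 its inhibitor, in the authors' deposited table.

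Of the replication fork genes 3 of 27 fell, the polymerase subunits Pold2 at -0.45 and Pole at -0.40 and the ligase Lig1 at -0.32 in the authors' deposited table, although 25 of the 27 had negative values. Of origin licensing and the CMG helicase 3 of 17 fell and 1 rose. In all tested genes these shares were 3.31% called lower and 3.78% called higher. Gmnn, which encodes geminin, the inhibitor of licensing, had -0.79 (SE 0.11, adjusted p = 3.56e-11), lower than any member, and its target Cdt1 had -0.37 in the authors' deposited table. Orc2, a subunit of the origin recognition complex, rose with 0.32 (SE 0.10, adjusted p = 0.0385), per the authors' deposited table. In nucleotide supply 2 of 7 fell, thymidine kinase Tk1 at -0.47 and the dUTPase Dut at -0.50 in the authors' deposited table.

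Upstream regulators of the cycle include the RB family, E2F and MuvB genes. Of the 18 related genes of this kind 0 fell at the adjusted threshold, against 3.31% of all tested genes. E2f1, which fell, is counted with the G1/S members and is not among the 18. Of the 18 genes 4 had an unadjusted p under 0.05, and 2 of these were negative, where 9.24% of all tested genes were lower. The positive ones were Rb1 and Lin37. Rb1 had 0.28 (SE 0.14, adjusted p = 0.249) and did not pass, per the authors' deposited table. Lin37, a MuvB subunit, rose with 0.51 (SE 0.15, adjusted p = 0.0136), per the authors' deposited table. It was the 1 of the 18 called higher, against 3.78% of all tested genes. The median of these 18 was -0.04. Of 12 other cyclins, CDKs and their regulators 2 fell, the CDK-binding protein Cks2 at -0.56 and the inhibitory kinase Wee1 at -0.30 in the authors' deposited table. The CDK inhibitors moved in both directions: Cdkn1a, which encodes p21 and is a target of p53, rose with 0.62 (SE 0.10, adjusted p = 1.86e-07), and Cdkn2c, which encodes p18, fell with -0.36 (SE 0.08, adjusted p = 0.000764), per the authors' deposited table.

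**Figure D4:**
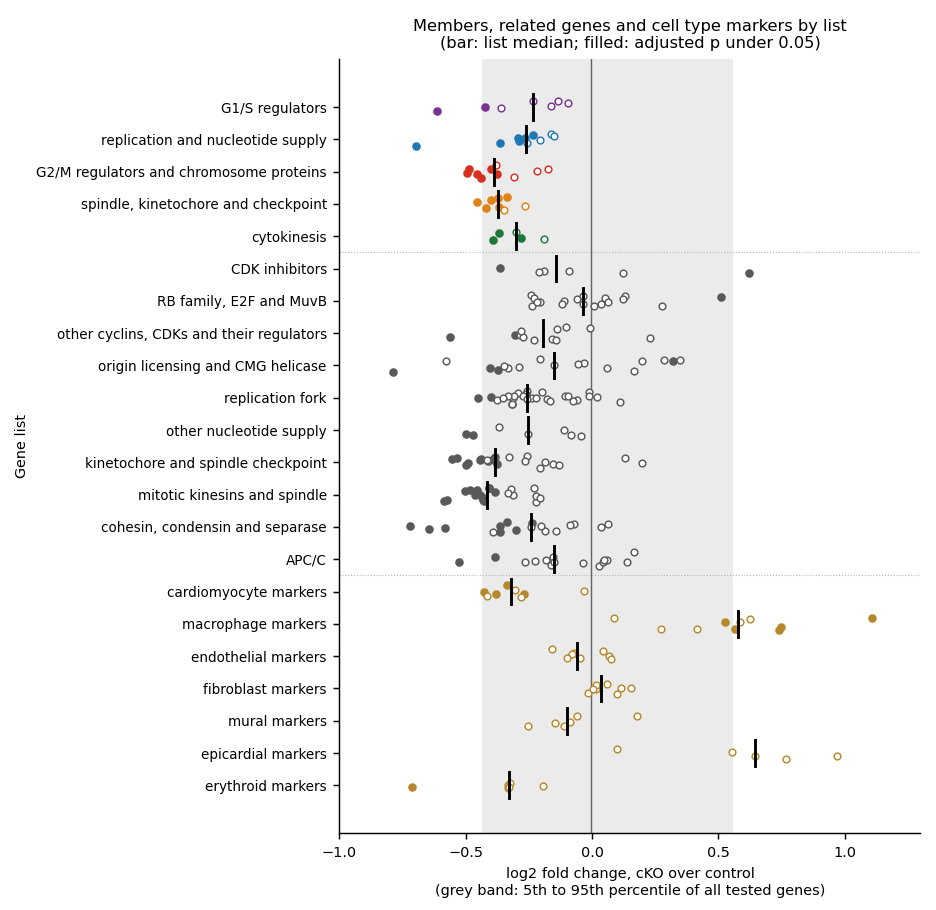
Log2 fold change of cKO over control for the tested genes of the members' 5 roles (coloured), 10 groups of related genes (grey) and 7 lists of cell type markers (brown), with a black bar at each list's median; filled points have an adjusted p under 0.05. The grey band spans the 5th to the 95th percentile of all tested genes, -0.43 to 0.55. Medians run from -0.23 to -0.39 in the members' roles, and the macrophage markers stand at 0.58.

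Markers of the heart's cell types moved with the groups in part. For the counts below, 3.31% of all tested genes were called lower and 3.78% higher. Of 8 cardiomyocyte markers 4 fell, with a median log2 fold change of -0.32 and values from -0.43 to -0.03, in the authors' deposited table. Of 10 macrophage markers 5 rose and all 10 were positive, with a median of 0.58 in the authors' deposited table. Markers of endothelial cells (8 genes, median -0.06), fibroblasts (8 genes, median 0.04) and mural cells (6 genes, median -0.10) had 0 calls in either direction, with 0, 0 and 2 genes at an unadjusted p under 0.05, in the authors' deposited table. Of 6 erythroid markers, which stand for red blood cells and their precursors, 1 fell (Hbb-bt), with a median of -0.33 in the authors' deposited table. The 5 epicardial markers had a median of 0.64 and 0 calls, with 4 at an unadjusted p under 0.05, in the authors' deposited table. Of 6 lymphocyte markers 3 were tested, with 0 calls and 0 at an unadjusted p under 0.05, at means of 0.975 to 32.9 normalized counts for the 6 in the authors' deposited table. The 4 adipocyte markers had 0 calls and 0 at an unadjusted p under 0.05, with a median of 2.52 and standard errors whose median was 1.69, in the authors' deposited table. The part of these cell types in the members' values was not tested.

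Few splicing events of the members were called between the groups, as was so for all events. The inclusion level, given by the authors as 1 value per group, is the share of transcripts in which an exon is present, an intron is kept or a splice site is used. An event was called where the minimum change, the change exceeded with a probability of 0.95 according to vast-tools, was at least 10 points. Of the members' 1284 events 1 was called (0.0779%), against 0.23% of all 265079 events, a count too small to set the members apart. Of their 153 alternative 5′ sites 1 was called, against 0.284% of all such sites, and 0 of 424 exons (0.294% of all exons), 0 of 236 alternative 3′ sites (0.275%) and 0 of 471 introns (0.134%) were. At a minimum change of at least 5 points 3 member events passed, against 0.633% of all events, and 8 had a minimum above 0, against 2.22%. The median absolute difference between cKO and control was 0.167 points in the members' events and 0.449 points in all events. A difference of at least 5 points was seen in 30 member events (2.34%, against 7.05% of all events), and 25 of the 38 members with events had none. Inclusion was intermediate, between 10% and 90% in control, at 3.43% of the members' events and 7.99% of all events. The members' events were not matched to other events by expression or inclusion level, so the smaller differences are a description.

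By role, the 134 events of G1/S members, the 287 of replication members and the 235 of the G2/M group held 0 with a minimum change above 0. The 376 events of the spindle group held 5 (1.33%) and the 252 of cytokinesis held 3 (1.19%), against 2.22% of all events. Inclusion was intermediate at 0 of the 287 events of replication members, against 7.99% of all events. Differences between the roles were not tested. Introns, at 471 the most numerous class, had 0 calls and 0 with a minimum above 0, and a median inclusion of 1.03% in cKO and 1.03% in control. Exons had a median inclusion of 99.7% in cKO and 99.7% in control. Rrm2, whose mRNA fell by 0.70 on the log2 scale in the authors' deposited table, had 15 events, none of which differed by more than 0.581 points. The 80 events of Top2a differed by at most 3.29 points and the 19 of Ccna2 by at most 0.835 points.

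**Figure D5:**
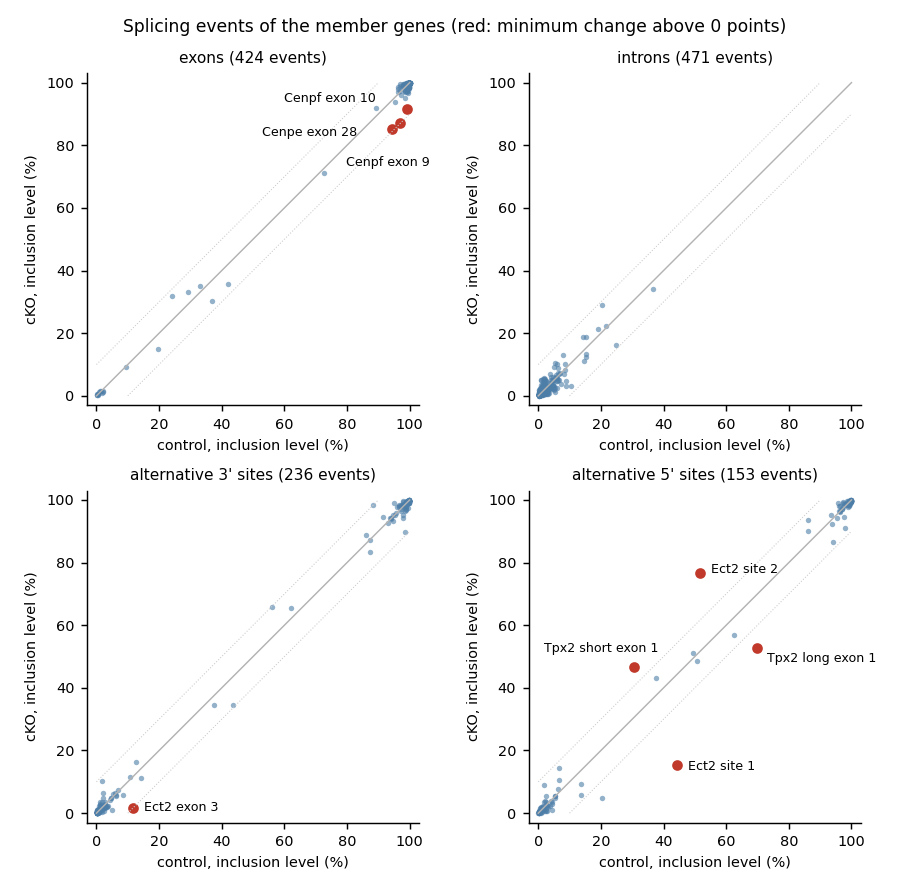
Inclusion level in cKO (vertical axis) against control (horizontal axis), in percent, for the 1284 events of 38 members, 1 panel per class of event; dotted lines mark differences of 10 points and red points the 8 events with a minimum change above 0. Most events lie on the diagonal, and both Ect2 sites of exon 1 and both Tpx2 sites of exon 1 stand off it.

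The called event lies in Ect2, at the 5′ splice site of exon 1 (mm9, chromosome 3, minus strand), where 3 alternative sites end the exon. The first site, at 27052639, was used at 15.4% in cKO hearts and 44.4% in control hearts, a difference of -29.0 points with a minimum change of 10. The second site, at 27052625, was used at 76.7% in cKO and 51.6% in control, with a minimum change of 4. The third, at 27052545, had 10.6% in cKO and 6.51% in control, with a minimum change of 0. Control hearts thus used the first and second sites about equally, and cKO hearts mostly the second. The sites are 14 and 80 bases apart, the same spacing as the ends of exon 1 among transcripts of Ect2 in GENCODE M21. In the GENCODE transcript Ect2-202 this exon carries no coding sequence, so the first and second sites lie in its 5′ UTR. Other transcripts of Ect2 were not checked for coding sequence here. The end of exon 1 in GENCODE M21 (chr3:27153703-27153730, GRCm38, minus strand) shows the difference, with capitals for the 14 bases that stay in the exon with the later sites and not with the first.
Ect2 exon 1 end: aatctctgagcgtgGTGAGGACTGCGGG
The capitals open with GT, the letters with which most introns begin. Ect2 also has a pair of acceptors 3 bases apart at exon 3, of which the downstream one (27047991) was used at 1.72% in cKO and 11.8% in control, with a minimum change of 1.

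Tpx2 showed a shift of the same class that missed the threshold. The sites that end its exon 1 are 188 bases apart (mm9, chromosome 2). The nearer one, at 152673845, was used at 46.8% in cKO and 30.5% in control, and the farther one, at 152674033, at 52.8% in cKO and 69.7% in control, each with a minimum change of 5. This exon, too, carries no coding sequence. Tpx2 mRNA fell in the gene table, while Ect2 mRNA did not pass.

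The outer kinetochore genes Cenpe and Cenpf had lower values at single exons, under the threshold. Exon 28 of 46 of Cenpe (156 bases, chr3:134905441-134905596, mm9) was included at 85.2% in cKO and 94.3% in control, with a minimum change of 3. In Cenpf, exon 9 of 18 (129 bases) was included at 87.1% in cKO and 97.0% in control, and exon 10 (123 bases) at 91.5% in cKO and 99.1% in control, each with a minimum change of 2. The lengths of all 3 exons are multiples of 3, so that skipping them keeps the reading frame. Aurka had a difference of -15.5 points at a 5′ splice site, with 4.98% in cKO and 20.4% in control, but a minimum change of 0.

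The 153 related genes with events had 5090 of them, of which 1 was called (0.0196%), against 0.23% of all events. An intron of Zwint, a kinetochore gene (chr10:72120137-72130646, mm9), had an inclusion level of 88.2% in cKO and 42.3% in control, with a minimum change of 21. Whether reads cover this long intron from end to end was not checked. An intron of Clspn, the checkpoint mediator claspin of the replication fork, came next with 75.6% in cKO and 53.2% in control and a minimum change of 9. The exons of Ncapg2 (67.6% in cKO, 91.6% in control) and Orc6 (71.7% in cKO, 84.9% in control) had minimum changes of 6 and 5.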

How the data were processed

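Polyadenylated RNA of 3 cKO and 3 control mouse hearts was sequenced from stranded libraries, per the labels' protocols. Tools named in the submitters' processing notes are kallisto 0.46.0 and DESeq2 1.24.0, with Trimmomatic 0.38 and FastQC 0.10.1. Per the file headers, the authors' gene table gives a signal (the mean normalized count over all libraries), the standard error beside each log2 fold change, a Wald score and p-values with Benjamini-Hochberg adjustment over 15929 genes, as DESeq2 writes them. Per the file headers, the deposited splicing table gives inclusion as a fraction for each group and a score for its difference, with the replicates combined; fractions are printed as percentages, and HomCre was read as cKO and Hom as control. The sources used here do not give the versions of vast-tools and sleuth or the thresholds of the authors' lists.

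No fit was made, since the files hold group comparisons; the authors' p-values were used as deposited, in place of the count test planned for values per library. The replicates are labelled as biological. Gene IDs were matched to GENCODE M21 symbols (35856 of 36558). Since the depth of the libraries is unknown, counting intervals are left out. Intervals of fold changes are 95% (1.96 standard errors). For the depth readout, a gene needed at least 3 exons within 3 points of full inclusion, and the distance from full inclusion in control over that in cKO was centred on all genes. Event coordinates are mm9 as deposited, and exon numbers were matched to GENCODE M21 (GRCm38) by length and spacing, with no conversion. The scripts, in Python 3.11.15 with scipy 1.17.1, were tested on simulated data. Named were all members, up to 3 related genes per role by adjusted p among those called, and member events by minimum change and difference; Ect2 exon 3, the third Ect2 site, Cenpe, Cenpf, Aurka, Ncapg2 and Orc6 were added after their values were seen, as were Zwint and Clspn. The members and lists were chosen with earlier results of these data known. Alternatives changed the set of genes adjusted over, the thresholds, a minimum mean of 100, the pipeline, and the class of event.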

Additional observations from a re-analysis of the deposited data

How the results depend on the processing

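Of the 40 members 23 were called lower, and the count was 19 when p-values were adjusted over every gene with a p-value, 26 at an adjusted p under 0.1 and 24 with a minimum mean of 100 normalized counts. It was 10 at an adjusted p under 0.01, 2 with a minimum size of 0.5 on the log2 scale, 14 in the authors' sleuth list and 0 in their featureCounts list. The stricter limits pass fewer genes by construction. The other lists hold 3.24% (sleuth) and 0.659% (featureCounts) of all tested genes, so the 0 is near its background; for the sleuth count the cause was not tested. Of the related genes 45 were lower, and 29 at an adjusted p under 0.01, 41 over every p-value and 56 at 0.1. Over every gene with a p-value, 36 members kept their side of the threshold and 4 (Mcm2, Mcm5, Bub1b and Kif23) lost their call; with the minimum mean, 39 kept it and Plk1 passed at 0.0478. The median log2 fold change of the members was -0.34 as deposited, -0.34 centred on all genes and -0.33 as a weighted mean. The 1 called splicing event became 3 at a minimum change of 5 points, 8 above 0 and 7 by a difference of 10 points alone; it is 0 among exons, 0 among introns, 0 among alternative 3′ sites and 1 among alternative 5′ sites. The sign agreement behind the direction of the fold change was 94.8% with exons within 2 points of full inclusion and 94.4% within 5, a choice added after seeing the data, as was the range of mean counts for the background. No paired analysis was possible because the tables hold no values per library, and for the same reason no heart could be left out. With depth unknown, events and genes that did not pass cannot be read as equal between the groups.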

Other observations

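Values at other member events are given as a description, with a minimum change of 0 in each. An alternative 3′ site of Mcm5 was used at 10.2% in cKO and 1.67% in control, and its partner site at 89.6% in cKO and 98.4% in control. An alternative 5′ site of Mcm7 was used at 14.3% in cKO and 6.50% in control. An intron of Foxm1, whose mRNA did not pass, was retained at 28.9% in cKO and 20.5% in control. In Kif23, a pair of alternative exons was included at 35.8% and 30.3% in cKO, against 42.1% and 37.0% in control. In Cdc27, an APC/C subunit among the related genes, an exon was included at 88.9% in cKO and 98.8% in control, with a minimum change of 4. All of these were chosen after their values were seen.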
